A study of Mus musculus with 15 samples.

Results

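Of the 24336 genes with a symbol on the arrays, 9 enzymes that make or degrade heme are described. They are part of the enzymes of these pathways and were chosen by gene symbol among the non-control probes, and 13 of the 55681 probes belong to them. The arrays measured RNA of 15 liver tumors in 3 groups of 5. Hepatocellular carcinomas (HCC) came from p53f/f mice, in which both Trp53 alleles carry loxP sites but remain active, and from p53LKO mice, in which Trp53 is deleted in the liver by a Cre driver not given in the sources used here. Intrahepatic cholangiocarcinomas (ICC), tumors of bile duct type, came from p53LKO mice alone. All mice were on a C57/BL6J background and received carbon tetrachloride (CCl4), a liver toxin, by intraperitoneal injection at 0.5 µl per g of body weight for 16 weeks. There was no untreated tissue among the arrays, so every value compares tumors of treated mice. Whole tumor tissue was used. The study describes sampling at several ages and a longer follow-up of p53f/f mice. The labels do not tie an age to each tumor, so age and genotype cannot be told apart in the comparison of the HCC groups. The 5 p53f/f HCC came from 4 mice, since mouse 3717 gave 2 of them, and 4 p53LKO mice gave both an HCC and an ICC.

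Heme is built in a fixed order that starts and ends in mitochondria. Alas1 condenses glycine with succinyl-CoA and is the rate-limiting step in liver, Alad joins the products to a pyrrole, Uros closes the ring of linked pyrroles, Urod and Cpox trim its side chains, Ppox oxidises it, and Fech inserts iron. Hmox1 opens the heme ring and releases iron, and biliverdin reductases act on the pigment that results, Blvra on its main isomer and Blvrb on other isomers. The liver is, after the bone marrow, the main site of heme synthesis, chiefly for cytochromes P450.

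In p53LKO mice, ICC had lower levels than HCC of the first enzyme of the pathway, of the last and of several between, and of Blvrb. Alas1, Urod, Fech and Blvrb were 2.02 to 2.54-fold lower and passed both limits used here, a fold change over 2 and an adjusted p under 0.05. With quantile normalization or scaling to probes detected on all arrays, 0 of the 4 passed the fold limit, but all stayed under that adjusted p. Alad fell at that adjusted p with a smaller change. Ppox was also under it, but in 10 of 26 alternative settings alone. Uros was the exception, with a fitted difference above 0 that did not pass. In bulk tissue, fewer cells of a type and less RNA per cell cannot be told apart. Between the HCC of p53LKO and p53f/f mice no enzyme passed both limits. Only Uros differed there at the adjusted p, and it was lower in p53LKO HCC.

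Levels are log2 intensities relative to the 75th percentile of their own array, so a level of 0 is that percentile and each unit is a doubling. Since probes bind with different strength, levels of different genes are not set against each other. Uros, Alas1, Alad and Hmox1 had a pair of probes each, and a gene is represented by its brighter probe. The representative probes were well above background on all 15 arrays. In each pair the probes differed in value, and probes of Alas1 and Uros are shown because these genes had the largest fitted differences between the HCC groups. For the brighter Alas1 probe and both Uros probes, the first 30 of the 60 bases are given 5′ to 3′ with the whole probe's position in mm9, as the array files give it.
Alas1 brighter probe, chr9:106136284-106136343, minus strand: ccaggccattaccatacccacatagtagcc
Uros brighter probe, chr7:140878069-140878128, minus strand: ctgatgctgacctgataagaatgataaatc
Uros dimmer probe, chr7:140883817-140883876, minus strand: ttcgctcttcatgttggtaccaatatttac
The Uros probes are assigned to different transcripts, and the dimmer passed the software's test against background on 2 of the 5 arrays of p53f/f HCC, 3 of those of p53LKO HCC and 0 of those of ICC. No change is read from it.

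Among facts that hold for the whole series, the share of probes well above background was 55.1 to 70.1% in p53f/f HCC, 37 to 62.1% in p53LKO HCC and 42.5 to 47% in ICC. The arrays lay on 2 slides of 2 rows. All p53f/f HCC and the p53LKO HCC of mice 3731, 3733 and 3975 were in upper rows, and the other p53LKO HCC, of mice 3976 and 5283, and all ICC in lower rows. These 2 p53LKO HCC had 46.4 and 37% of probes above background. The single Trp53 probe was 2.08 lower on the log2 scale in p53LKO than in p53f/f HCC, with no overlap, but the files place it on chromosome 17, away from the gene's own locus, so it does not check the deletion. Because p-values measure the spread between tumors, and 2 tumors shared a mouse, they do not stand for separate animals throughout.

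The first comparison asked whether loss of Trp53 changed the enzymes within HCC. Of the 9 enzymes, 0 were higher and 0 lower past both limits, against 5.19% and 10.8% of all 17847 genes tested. At the adjusted p alone 0 were higher and 1 lower, against 13.8% and 15.7% of all genes. By limma's unadjusted p under 0.05, 1 was higher (Alas1) and 1 lower (Uros), against 20.7% and 20.4% of all genes, and with the methods' t-test or the Mann-Whitney test in place of limma 0 passed both limits. The median of the 9 fitted differences was 0.21 log2 units, and that of all genes was 0.06. Fitted values were above 0 for 6 enzymes and below 0 for 3.

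Alas1 had the largest fitted difference of the 9 enzymes in this comparison, and it did not pass. Its level in p53f/f HCC was 3.52 in mouse 3681, 6.06 in mouse 3715, 5.55 in mouse 3716, and 3.69 and 4.59 in the tumors of mouse 3717. In p53LKO HCC it was 5.65, 6.04, 6.25, 5.89 and 5.75 in mice 3976, 5283, 3731, 3733 and 3975. The p53LKO HCC lay close together at the upper end, whereas the p53f/f HCC were spread from well below them to within their range. The SD was 0.24 among the former and 1.12 among the latter (n = 5 each). The difference was 1.23 (SE 0.45, adjusted p = 0.0578 in limma), and the dimmer probe gave 0.26 (adjusted p = 0.324). Without the p53f/f HCC of mouse 3715 or of mouse 3716 the brighter probe passed, at 1.57 with an adjusted p of 0.0116 and at 1.45 with 0.0361. Over 26 alternative settings its adjusted p ran from 0.00741 to 0.348.

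Uros, whose loss of function causes congenital erythropoietic porphyria, was the enzyme that fell. Its level was 3.11 in the p53f/f HCC of mouse 3681, 2.61 in that of mouse 3715, 2.66 in that of mouse 3716, and 2.90 and 2.61 in the tumors of mouse 3717. In the p53LKO HCC of mice 3976, 5283, 3731, 3733 and 3975 it was 1.81, 2.39, 1.86, 1.88 and 1.57. Every p53LKO HCC was thus below every p53f/f HCC, as was so in either direction for 19.5% of all genes and for 1 of the 9 enzymes. The mean went from 2.78 ± 0.22 to 1.90 ± 0.30 (SD, n = 5 each), a difference of -0.88 (SE 0.19), or 1.84-fold lower, with a limma adjusted p of 0.00529. The exact permutation test over all splits of the 10 arrays into 5 and 5 gave p = 0.00794, the smallest it can give. The difference was -1.01 within the upper rows and -0.72 within slide 1, where 2 p53LKO HCC faced 4 p53f/f HCC and the adjusted p was 0.15. Scaled to the spike-in controls, which raised the median of all genes from 0.06 to 0.80, it was -0.14 with an adjusted p of 0.648, the highest of 26 alternative settings, whose lowest was 0.000875.

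The other enzymes did not pass at the adjusted p in the main setting. With the spike-in scaling Urod at 1.05, Fech at 1.12 and Hmox1 at 1.27 passed both limits, as did Alas1, and Alad at 0.95 (adjusted p = 0.0254) and Ppox at 0.81 (adjusted p = 0.0124) passed at the adjusted p. With normexp, a model-based background correction, Fech had an adjusted p of 0.0425 at 0.44. Fech, which inserts the iron, ranged from 3.93 to 4.81 in p53f/f HCC and from 4.63 to 4.89 in p53LKO HCC. Its difference of 0.38 had an adjusted p of 0.123 in limma, while the exact permutation test on this gene alone gave p = 0.0238. Hmox1, the inducible heme oxygenase, had differences of opposite sign on its 2 probes, 0.53 on the brighter (adjusted p = 0.277) and -0.31 on the dimmer (adjusted p = 0.369). For Alad the difference was 0.21, for Urod 0.31, for Cpox -0.03, for Ppox 0.07 and for Blvrb -0.16, with 95% intervals that all included 0 and adjusted p values from 0.231 to 0.962. The widest of these intervals, that of Cpox, went from -0.87 to 0.81, so a change of nearly 2-fold either way would be within it.

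**Figure D1:**
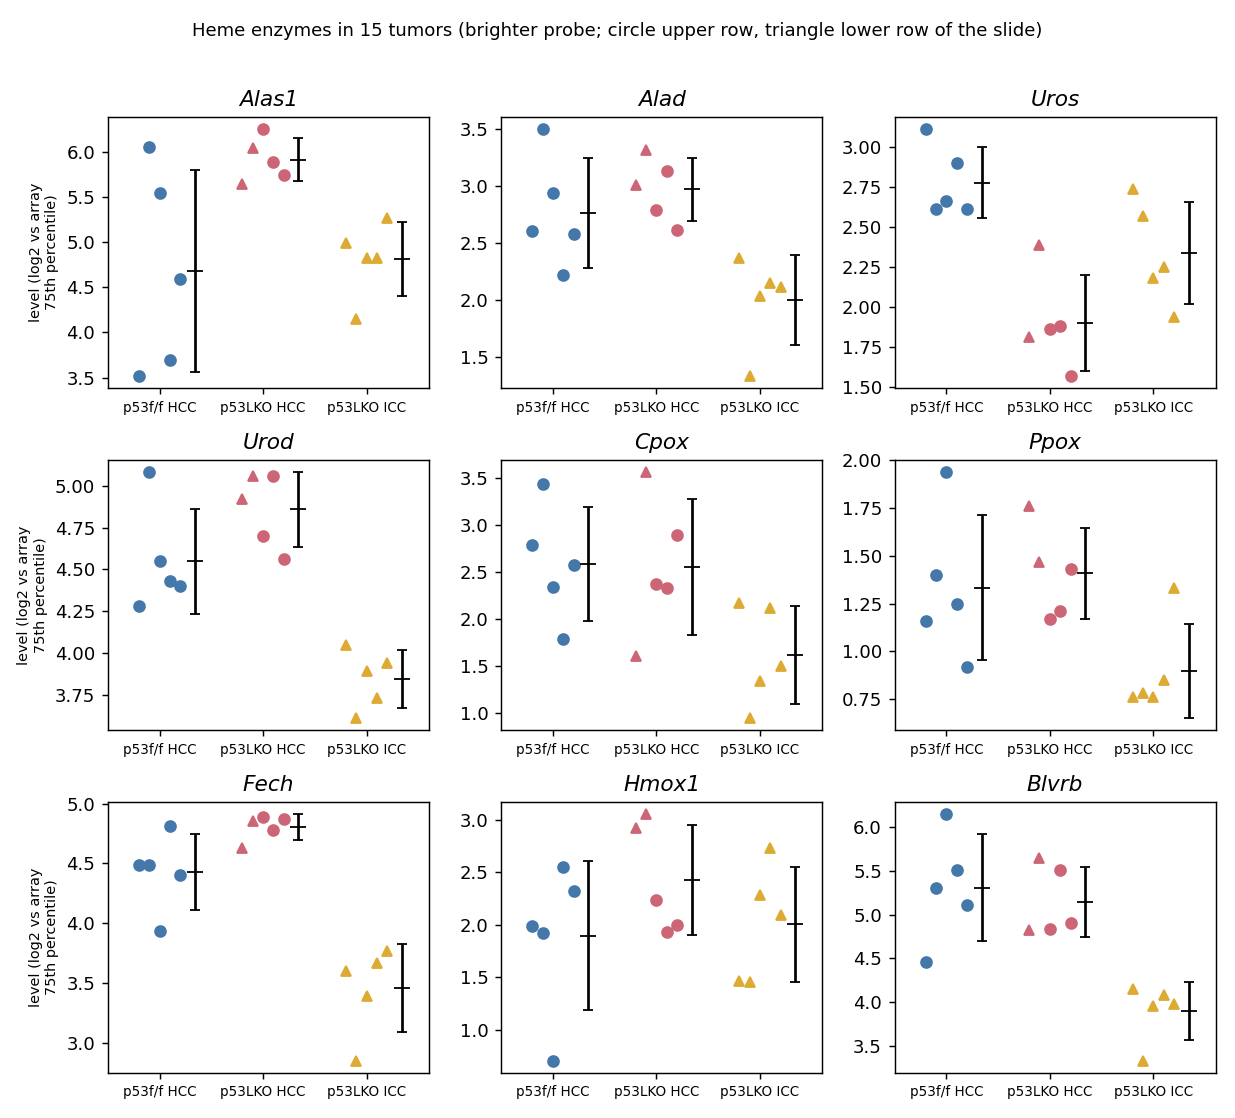
Log2 level of the brighter probe of each of the 9 heme enzymes (y axis, 0 is the 75th percentile of the array, axes differ by panel) in 5 p53f/f HCC, 5 p53LKO HCC and 5 p53LKO ICC. Each point is a tumor, circles lie in an upper and triangles in a lower row of a slide, and black marks give mean and SD. For Alas1, Alad, Urod, Fech and Blvrb all 5 ICC lie below all 5 p53LKO HCC, and for Uros all 5 p53LKO HCC lie below all 5 p53f/f HCC.

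The second comparison set ICC against HCC of the same genotype. Of the 9 enzymes, 0 were higher and 4 lower past both limits, where 13.2% of all 16962 genes tested were higher and 15.2% lower. At the adjusted p alone 0 were higher and 6 lower, against 18.5% and 29.1% of all genes, and by limma's unadjusted p under 0.05, 0 were higher and 7 lower, against 21.3% and 33.7% of all genes. In 5 enzymes the groups did not overlap, as in 30.8% of all genes, and in all 5 ICC was lower. The median difference of the 9 enzymes was -0.97, against -0.17 for all genes.

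Alas1, the rate-limiting enzyme, was at 4.99, 4.15, 4.83, 4.82 and 5.27 in the ICC of mice 3731, 3733, 3976, 3977 and 5283, all below the p53LKO HCC values of 5.65 to 6.25 and within the range of the p53f/f HCC. The difference was -1.10 (SE 0.22, adjusted p = 0.00264), or 2.14-fold lower. Its dimmer probe was at 1.15, 0.33, 0.73, 1.03 and 1.03 in ICC against 1.59 to 2.04 in p53LKO HCC, also without overlap, and gave -0.97 (adjusted p = 0.00238 in limma). Here the probes gave close values, unlike between the HCC groups.

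Alad, the next enzyme after Alas1, fell without reaching the fold limit. In p53LKO HCC it was at 3.01, 3.32, 2.79, 3.14 and 2.62, and in ICC at 2.37, 1.34, 2.04, 2.15 and 2.12, without overlap. The difference was -0.97 (SE 0.22, adjusted p = 0.00522). Its dimmer probe, well above background on 3 of 5 ICC arrays, gave -0.40 (adjusted p = 0.233).

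Urod removes carboxyl groups from the side chains of the ring. It was at 4.92, 5.06, 4.70, 5.06 and 4.56 in p53LKO HCC and at 4.05, 3.61, 3.89, 3.73 and 3.94 in ICC, where the values lay closest together of the called enzymes (SD 0.17, n = 5). The difference was -1.01 (SE 0.16, adjusted p = 0.000815), or 2.02-fold lower, only just past the fold limit. For Urod and Blvrb, too, all ICC lay below all p53f/f HCC, a contrast that was not tested.

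Ppox was at 1.76, 1.47, 1.17, 1.21 and 1.43 in p53LKO HCC and at 0.76, 0.78, 0.76, 0.85 and 1.33 in ICC. Only the ICC of mouse 5283 overlapped with the HCC. The difference of -0.51 (SE 0.18) had an adjusted p of 0.0363 in limma. In 16 of 26 alternative settings, among them the 4 mice as a block (adjusted p = 0.123), the lower rows alone (0.0526), slide 2 alone (0.248) and the spike-in scaling (0.206), Ppox was not under 0.05, and its difference ran from -0.72 to -0.15.

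Fech had the largest difference of the 9. Its level in p53LKO HCC, in the same order of mice as for Alas1, was 4.63, 4.85, 4.89, 4.78 and 4.87. In ICC it was 3.60, 2.85, 3.39, 3.67 and 3.77. The HCC differed little among themselves, and all ICC lay below them and below the lowest p53f/f HCC at 3.93. The difference was -1.35 (SE 0.19, adjusted p = 0.000413 in limma), or 2.54-fold lower, with an exact permutation p of 0.00794.

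Blvrb reduces minor isomers of biliverdin and also flavins. In p53LKO HCC its level was 4.83, 5.65, 4.84, 5.51 and 4.91, and in ICC it was 4.15, 3.33, 3.95, 4.08 and 3.98. The ICC of mouse 3733 stood below the other ICC. The difference was -1.25 (SE 0.23, adjusted p = 0.00182 in limma), or 2.37-fold lower.

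Cpox, Hmox1 and Uros did not pass at the adjusted p in the main setting. Cpox, which acts between Urod and Ppox, had a difference of -0.94 with an adjusted p of 0.0554, and varied widely in p53LKO HCC, from 1.61 to 3.57. It was under 0.05 in 7 of 26 alternative settings and also past the fold limit in 4 of them, without the HCC of mouse 3976 (-1.17, adjusted p = 0.0202), without the ICC of mouse 3731 (-1.07, 0.0464) or of mouse 3977 (-1.06, 0.0497), and on slide 2 alone (-1.05, 0.0345). Hmox1 was at 1.93 to 3.05 in HCC and 1.46 to 2.73 in ICC, with a difference of -0.42 (adjusted p = 0.294), while its dimmer probe gave -0.76 (adjusted p = 0.0176). Uros was at 2.74, 2.57, 2.18, 2.25 and 1.94 in ICC. Its ICC mean of 2.33 lay between those of p53LKO HCC (1.90) and p53f/f HCC (2.78), while single values overlapped with both groups. The difference of Uros from p53LKO HCC was 0.43 (95% interval -0.02 to 0.89, adjusted p = 0.109 in limma).

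**Figure D2:**
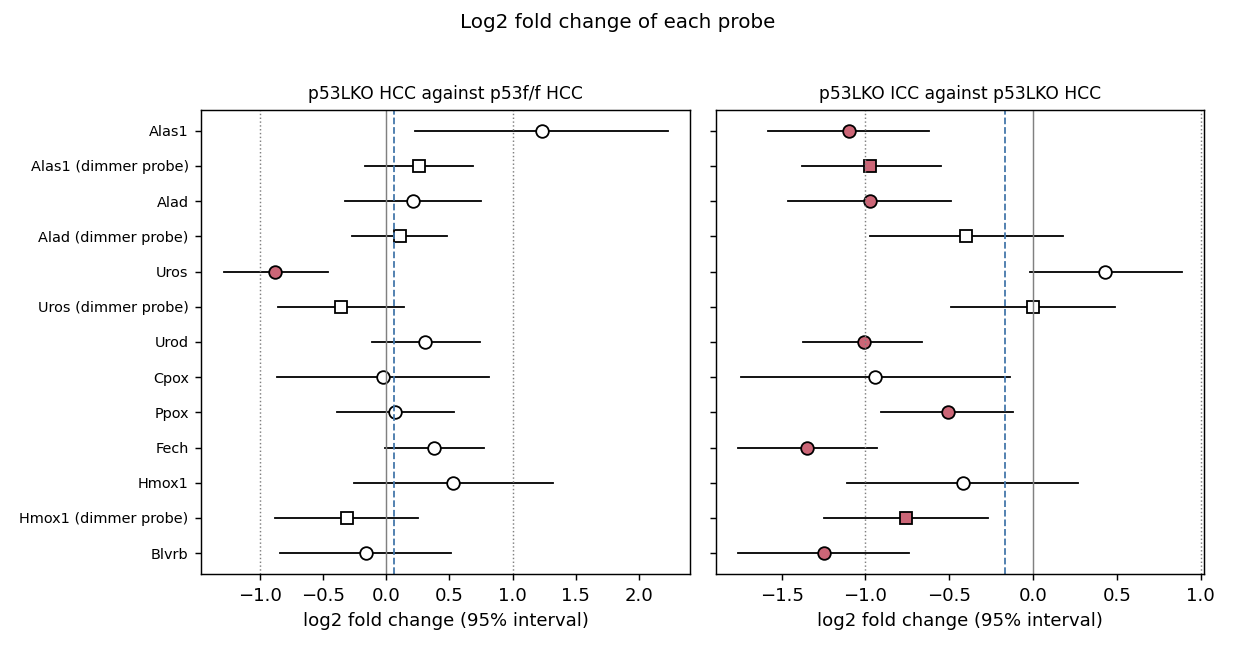
Log2 fold change (x axis) of the 13 probes in both comparisons with 95% intervals from limma, circles for the brighter and squares for the dimmer probe of a gene, filled where the adjusted p was under 0.05. Dotted lines mark a 2-fold change and the dashed line the median of all genes. Between the HCC groups only Uros at -0.88 is filled, and between ICC and HCC 7 probes of 6 enzymes and the dimmer probe of Hmox1 are filled, all below 0.

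Each result on ICC was also read within mice and within batches. In the 4 mice that carried both tumors, ICC minus HCC was -1.93 to -1.08 for Fech, -1.74 to -0.77 for Alas1, -2.18 to -0.69 for Blvrb, -1.45 to -0.65 for Urod and -1.80 to -0.42 for Alad. For 8 enzymes ICC was lower in 4 of 4 mice, and for Uros in 1. Per mouse, 8 or 9 of the 9 enzymes were lower in ICC, while 55.9 to 56.7% of all genes were. With these 4 mice as a block, Alas1, Alad, Urod, Fech and Blvrb had adjusted p values from 0.0099 to 0.027 in limma, and Hmox1, not under 0.05 without the block, was at -0.71 with 0.0362, its only such value in 26 alternative settings. In the lower rows alone, where 2 HCC faced 5 ICC, the same 5 enzymes were -1.34 to -1.03 with adjusted p values from 0.00795 to 0.0443. On slide 2 alone, where 3 HCC faced 4 ICC, they were -1.43 to -0.94 with adjusted p values from 0.00642 to 0.0309. Hmox1 turned to 0.08 on slide 2 alone.

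**Figure D3:**
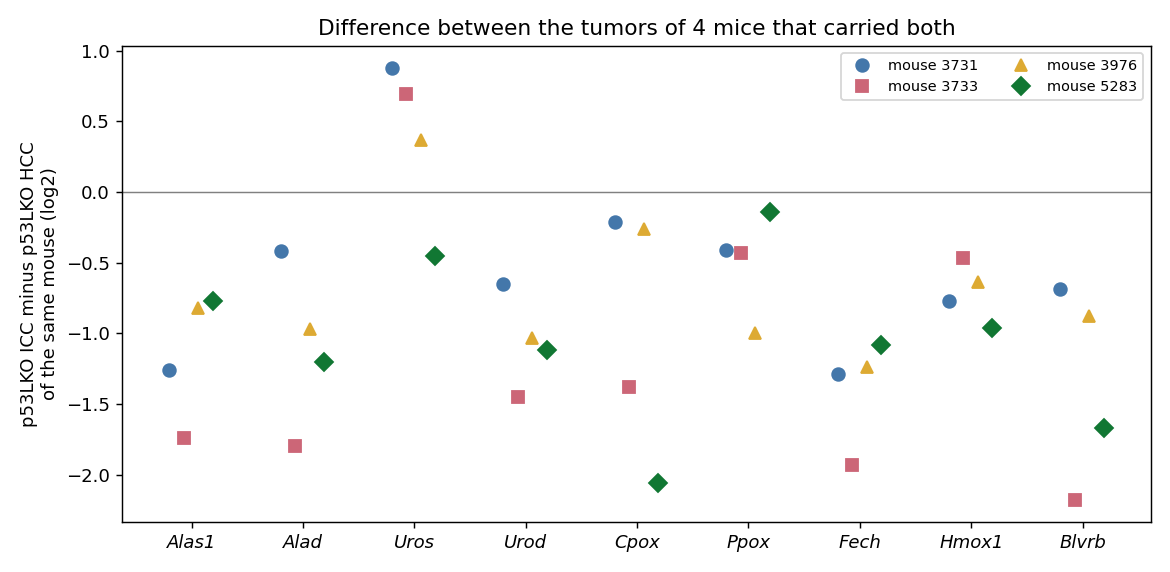
Difference in level between the ICC and the HCC of the same mouse (y axis, log2) for each enzyme (x axis), 1 point for each of the 4 p53LKO mice with both tumors. For 8 enzymes all 4 points are below 0, and for Uros 3 of 4 are above.

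The ICC of mouse 3733 was the lowest of the ICC in 7 of the 9 enzymes. Without it, the count past both limits was 2 (Fech at -1.19 and Blvrb at -1.11), and Alas1 at -0.93 and Urod at -0.96 stayed under an adjusted p of 0.05. The count of 4 also rests on the scaling, since these changes lie near the fold limit. It was 3 with the spike-in scaling, without Urod, 0 with quantile normalization, where the 4 enzymes were at -0.91 to -0.56 and all genes at -0.10, and 0 when arrays were scaled to the probes detected on all of them, where the enzymes were at -0.98 to -0.65 and all genes at 0.19. With quantile normalization and with detected-probe scaling, the 4 enzymes and Alad kept an adjusted p under 0.05, and Uros was higher in ICC, at 0.69 (adjusted p = 0.0287 in limma) and 0.80 (adjusted p = 0.0153).

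**Figure D4:**
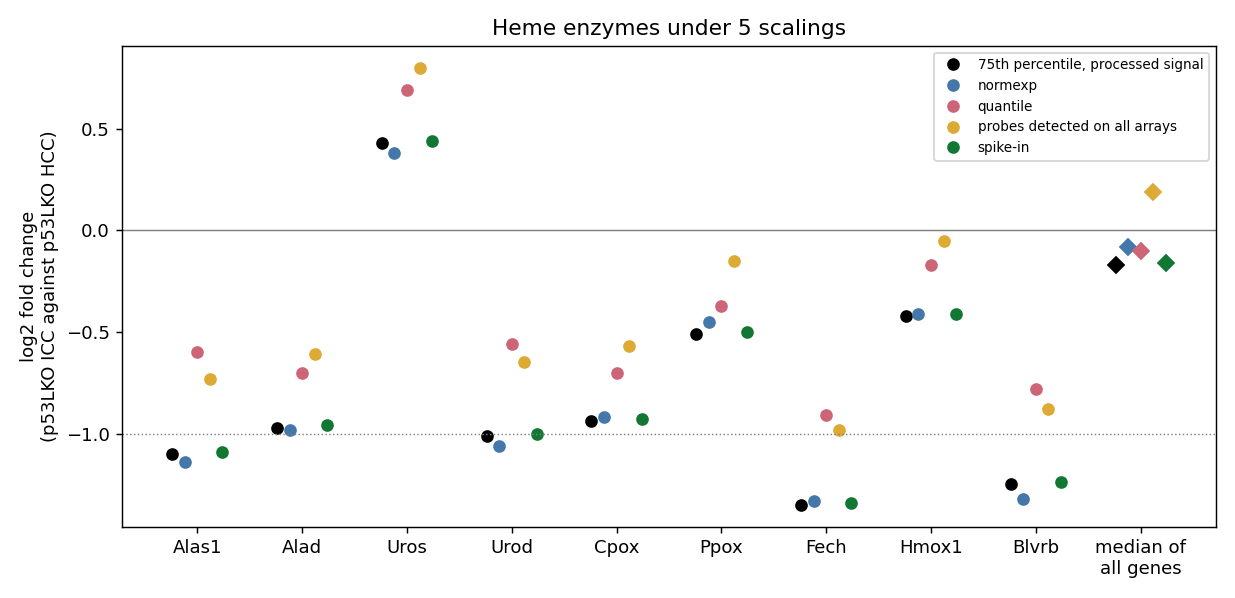
Log2 fold change of ICC against p53LKO HCC (y axis) for the 9 enzymes and for the median of all genes (diamonds), under 5 scalings of the arrays given by colour. The dotted line marks a 2-fold decrease. Fech, Blvrb and Alas1 lie below it with the 75th percentile, normexp and spike-in scalings and above it with the other 2, Urod lies below it with the first 2 and just short of it with the spike-in scaling, and 8 enzymes are below 0 and Uros above 0 under all 5.

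Markers of several liver cell types moved with the same contrast, in which 13.2% of all genes were higher and 15.2% lower past both limits. Of 10 hepatocyte markers 6 were lower in ICC past both limits, with a median difference of -1.60, and their summed level, in multiples of the array's 75th percentile, was 2500 to 3340 in p53LKO HCC and 864 to 1940 in ICC. Of 8 biliary markers tested 4 were higher, and their summed level was 6.63 in the median p53LKO HCC and 67.4 to 145 in ICC. Epcam was well above background on 0 of 5 p53LKO HCC arrays. Of 7 stellate cell and fibroblast markers 4 were higher in ICC, and their summed level was 54.4 to 160 in HCC and 329 to 543 in ICC. Of 9 macrophage markers tested, whose cells use Hmox1 to degrade heme of red cells, 1 was higher in ICC, a share near that of all genes. It was Lyz2, by 2.99 (adjusted p = 0.000128 in limma), and 0 were lower. The summed level of all 10 macrophage markers was 66.6 to 190 in HCC and 72.5 to 166 in ICC. The part of these cell types in the differences of the enzymes was not tested. In p53LKO HCC against p53f/f HCC the hepatocyte markers summed to 2500 to 3340 against 3140 to 6000. Past both limits 1 of 10 was lower (Apob at -1.20), near the 10.8% of all genes. At the adjusted p alone 4 of 10 were lower, against 15.7% of all genes, with Alb at -0.60, Serpina1a at -0.57 and Fgb at -0.95. Of 6 endothelial markers 2 were lower past both limits, Stab2 at -1.17 and Tek at -1.06, while the list's summed level was 25.7 to 33.3 against 24.1 to 40.8. Of 5 pancreatic acinar markers tested 1 was lower, Pnlip at -2.43. Its signal cleared background in 3 of 5 p53f/f HCC but in 0 of 5 p53LKO HCC, so the size of this fall is not measured. The part of the cell types of these markers in the lower Uros level was not tested.

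Other enzymes of heme synthesis and breakdown, outside the 9, were Alas2, Hmox2 and Blvra. Alas2, the erythroid form of the first enzyme, was at 1.97 to 2.80 in p53LKO HCC and at 1.00, -0.83, 0.38, 0.30 and -0.35 in ICC, a difference of -2.17 (adjusted p = 0.000552 in limma). In ICC the globin Hba-a1 differed by -1.68 (adjusted p = 0.00235) and Hbb-b1 by -1.58. All 4 erythroid markers tested, Alas2 among them, were lower, and of the list's 11 genes Gata1 and Rhag were well above background in no p53LKO tumor. Their part in the Alas2 value was not tested. Hmox2, the constitutive heme oxygenase, differed by -1.06 (adjusted p = 0.00435) and Blvra by -0.47 (adjusted p = 0.0405). Between the HCC groups these 3 differed by -0.58 for Alas2, 0.47 for Hmox2 and 0.31 for Blvra, with adjusted p values from 0.055 to 0.199.

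Genes that carry, bind or regulate heme made up 6 lists with these 3 enzymes, 40 genes of which 37 were tested. In ICC against p53LKO HCC, 2 were higher and 13 lower past both limits, where 13.2% of all genes were higher and 15.2% lower. In the mitochondrial transport list 2 of 9 were lower, the porphyrin carrier Abcb6 at -2.29 and Abcb10, which takes part in early heme synthesis, at -1.16. The list's median was -0.30. Of 8 genes of heme export, import and binding 4 were lower, the heme transporter Slc48a1 at -2.74, the porphyrin exporter Abcg2 at -1.73, Flvcr2 at -1.63 and the heme-binding Hebp1 at -2.06. The other 2 called were higher, the heme exporter Flvcr1 at 2.30 and Hebp2 at 3.39, the latter well above background on 3 of 5 HCC arrays. Hemopexin (Hpx), the plasma scavenger of heme, was at -1.03, and the scavenger receptor Cd163 was not above background on any array. The organic anion exporters Abcc2 and Abcc3, which carry conjugated bilirubin, were at -2.53 and -2.04.

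Of 11 regulators 2 were lower in ICC, a share near the 15.2% of all genes. The xenobiotic receptor PXR (Nr1i2), which raises Alas1 transcription with its drug targets, was at -3.07, and the heme-regulated kinase Eif2ak1 at -1.09. Adjusted p values of these called genes of the 6 lists ran up to 0.0359 (Hpx) in limma. Hpx held its call in 11 of 26 alternative settings. In p53LKO HCC against p53f/f HCC, 1 of the 37 was higher, Slc48a1 at 1.17 (adjusted p = 0.00307), and 1 lower, the clock repressor Nr1d1 at -3.38 (adjusted p = 0.00174), a known repressor of Alas1, where 5.19% of all genes were higher and 10.8% lower. At the adjusted p alone 4 were higher, with Abcb6 and Abcb10 both at 0.97 and Tspo at 0.81, and 2 lower, with Slc46a1 at -0.53, against 13.8% and 15.7% of all genes. The time of day of sampling is not given in the sources used here.

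Heme-containing proteins, the users of heme, had 5 of 16 lower in ICC and 0 higher (15.2% and 13.2% of all genes), with a median of -1.04. These were the cytochromes P450 Cyp2f2 at -4.68, Cyp2b10 at -2.75, Cyp3a11 at -1.67 and Cyp2c29 at -1.57, and cytochrome b5 (Cyb5a), which was 2.83-fold lower. P450 genes share sequence within families, so single members are uncertain, and of 26 alternative settings Cyp3a11 kept its call in 9 and Cyp2c29 in 15. Between the HCC groups the tryptophan dioxygenase Tdo2 was lower at -2.11 and cytoglobin (Cygb) higher at 1.47, the latter in 20 of 26 settings. Targets of Nrf2, the factor that induces Hmox1 and, in several cell types, Blvrb, had 11 of 13 lower in ICC, against the same 15.2%, and a median of -2.20. Nqo1 was at -3.23, Gsta4 at -3.23, Ephx1 at -2.97, Pir at -2.29, Gstm1 at -2.27, Osgin1 at -2.20, Gclm at -2.12, Gclc at -1.99, Srxn1 at -1.68 and Me1 at -1.45. Slc7a11, the eleventh, was well above background on 1 of 5 ICC arrays and at -2.55. Between the HCC groups Me1 alone passed, at 1.34 and in 9 of 26 settings, and the median was 0.11.

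**Figure D5:**
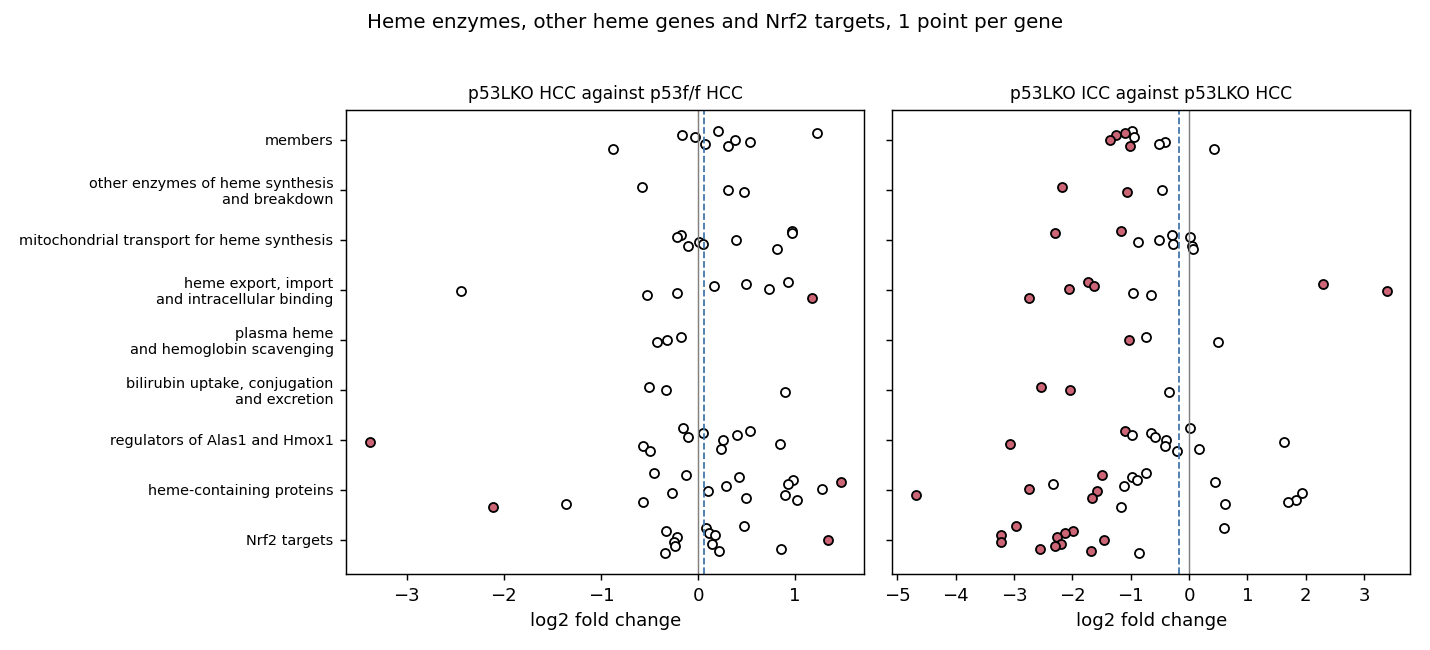
Log2 fold change (x axis) of single genes, 1 point each, in the 9 heme enzymes and 8 other lists (y axis) for both comparisons. Filled points passed both limits, and the dashed line is the median of all genes. Between the HCC groups few points are filled, and in ICC against HCC most filled points are below 0, with Flvcr1 at 2.30 and Hebp2 at 3.39 above.

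The genes with the most similar profiles over the 15 arrays were sought among 11618 genes by the root-mean-square difference of centred log2 levels. For Urod they were Ankrd40, Park7 and Psmd12 (0.15 to 0.16, where the spread of Urod itself was 0.48). For Alad they were Sucla2, Park7 and Urod (0.18 to 0.20), so that one enzyme of the pathway was among the nearest genes of another. For Fech they were Pqlc1, Zdhhc9 and Ibtk (0.22 to 0.23), and for Ppox Mea1, AU024581 and Tsr3 (0.15 to 0.17). For Blvrb they were Dcaf11, Dhx58 and Txnrd1 (0.24 to 0.30), and for Alas1 Dock8, Macrod1 and Eno1 (0.36 to 0.38). For Uros they were Olfr1347, Paip1 and Rps15 (0.17 to 0.22). These distances are descriptions of 15 tumors that share array and tissue.

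Since 4 enzymes were lower together in ICC, the 250 bases before the start of 3 of them are shown, 5′ to 3′, from RefSeq (GRCm38.p6). Where a gene has more than 1 start, the most upstream is used. Capitals mark matches to GGGCGG (Sp1 box) or CACGTG (E-box) on either strand. TGACNNNGC, the core of the antioxidant response element that Nrf2 binds, and GCGCNNGCG, a core of the nuclear respiratory factor site, were also searched.
Alas1, chr9:106247955-106248204, minus strand: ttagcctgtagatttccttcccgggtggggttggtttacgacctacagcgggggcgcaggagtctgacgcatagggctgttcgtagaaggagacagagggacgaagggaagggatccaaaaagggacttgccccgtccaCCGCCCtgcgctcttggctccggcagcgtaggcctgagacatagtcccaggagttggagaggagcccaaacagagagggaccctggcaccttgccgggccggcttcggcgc
Urod, chr4:116994414-116994663, minus strand: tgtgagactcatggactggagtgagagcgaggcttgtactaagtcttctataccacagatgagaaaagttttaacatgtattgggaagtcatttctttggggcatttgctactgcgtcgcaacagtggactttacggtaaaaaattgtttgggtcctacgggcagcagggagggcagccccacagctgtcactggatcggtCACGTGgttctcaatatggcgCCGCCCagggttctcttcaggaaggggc
Blvrb, chr7:27447728-27447977, plus strand: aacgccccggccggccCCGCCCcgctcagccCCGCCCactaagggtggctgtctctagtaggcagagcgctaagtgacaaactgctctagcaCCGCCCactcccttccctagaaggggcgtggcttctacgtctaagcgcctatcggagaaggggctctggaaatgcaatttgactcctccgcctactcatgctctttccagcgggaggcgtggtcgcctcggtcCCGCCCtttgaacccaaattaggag
Alas1 held GGGCGG once, beginning 111 bases before the start, Urod once at 28 and Blvrb 4 times, at 234, 219, 158 and 25. CACGTG was found in Urod alone of the 3, at 49. Outside the 3, both motifs also occurred before each start of Alad and before a start of Uros, which was not lower in ICC. TGACNNNGC and GCGCNNGCG did not occur in the 3 windows, but GCGCNNGCG had 5 matches, some overlapping, before the other start of Alas1 and 2 before a start of Uros. Among 32851 windows of RefSeq promoters, 32.7% held GGGCGG, 6.02% CACGTG, 10.2% TGACNNNGC and 9.89% GCGCNNGCG. Of the 9 enzymes 7 had promoters in the table, and TGACNNNGC occurred in 0 of these, all starts included. Hmox1 and Fech had none in it, so they were not searched. These matches are letters in a window and not binding sites.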

How the data were processed

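RNA of 15 tumors was labelled with Cy3 and hybridised to 1-colour Agilent arrays, and the labels gave group and mouse. The authors extracted the scans with Feature Extraction 10.7.3.1, per the submitters' processing notes. The deposited files hold a processed intensity per spot, with background subtracted and trends removed, and flags for spots above background or saturated, of which 0 spots were saturated. The number of arrays limits the precision. The deposited log2 value table of the authors followed the probe-centred scanner values (r at least 0.999, column medians -0.325 to 0.344). Its HCC columns were centred on the 10 HCC arrays, while the centring of the ICC columns is unknown, so it was used as an alternative for HCC alone. Beyond GeneSpring, the authors' normalization is not given in the sources used here.

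With R 4.3.3 and limma 3.58.1, log2 processed intensities were averaged over a probe's spots, without outlier spots, and shifted by the 75th percentile of non-control probes. Probes that passed the background flag on 3 or more arrays of either group were fitted, separately for each comparison (10 arrays), with Benjamini-Hochberg adjustment over all probes. A gene is its probe of highest mean log2 signal, and its other probes are given where they differ in direction or call. The permutation test is 2-sided. The fit was tested on simulated data. Python 3.11.15 and matplotlib 3.10.9 served for the promoter search and plots. Enzymes, gene lists, marker lists and alternatives were chosen with earlier results of these data known. Named are all probes of the 9 enzymes, with every array's value for enzymes under the adjusted p limit in either comparison, Alas2, Hmox2, Blvra and other list genes past both limits, markers by their sums, and the 3 nearest profiles. Values of Alas1 between the HCC groups, globin genes and probe detection were added after they were seen. Old symbols were matched through RefSeq synonyms (Flvcr1 is Mfsd7b and Flvcr2 Mfsd7c in the files), and 2 of the 40 heme list genes, Ugt1a1 and Gsta1, were not matched. A further gene and a probe's sequence are not reported here. Mouse was not in the main fits. For the values within mice and the check that follows, tumors of the same mouse were taken as pairs. Their deviations from group means correlated at -0.143 to 0.0655 in 4 pairs and at -0.263 to 0.284 in the 21 others. Arrays of a group correlated at 0.939 to 0.981. Alternatives were other background corrections, scalings, filters, tests, blocks, batches alone and leaving out each array.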

Additional observations from a re-analysis of the deposited data

Results flagged for a closer look

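Of 39 sets of 5 values, the 13 probes in the 3 groups, 2 held a tumor whose gap to the nearest other exceeded Dixon's 95% limit, and chance flags about 1 in 20, or 2 here. Ppox was at 1.33 in the ICC of mouse 5283, above the 0.76 to 0.85 of the other ICC, with a gap of 0.847 of the group's range. Blvrb was at 3.33 in the ICC of mouse 3733, below the 3.95 to 4.15 of the others, with a gap of 0.758 of the range.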

How the results depend on the processing

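In ICC against p53LKO HCC, Alas1, Alad, Urod, Fech and Blvrb were lower at an adjusted p under 0.05 in all 26 alternatives (9.99e-05 to 0.0443), while their place past the fold limit changed. Of 9 heme enzymes, 4 past both limits became 0 with quantile normalization and 0 when scaled to probes detected on all arrays, and 2 to 6 when 1 array was left out, 2 without the ICC of mouse 3733. The other heme genes stayed within 1.5 times of 15. With mouse as a random replicate block (consensus correlation 0.0439) the counts were 4 and 15, and with 4 mice as a fixed replicate block 5 and 15, with Alad added at -1.10. Hmox1 turned to 0.08 on slide 2 alone, the dimmer Alad probe to 0.02 with normexp, and the dimmer Uros probe, near background, to -0.30 with quantile normalization, to -0.04 with row as a block, and ranged from -0.17 to 0.13 with 1 array left out.

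In p53LKO HCC against p53f/f HCC, the count of 0 enzymes became 1 with normexp (Alas1), quantile normalization, scaling to detected probes, row as a block and the upper rows alone (Uros in these 4), all 15 arrays in 1 model (Alas1), and at the adjusted p without a fold limit (Uros). It was 0 to 1 with 1 array left out and 4 with spike-in scaling (Alas1, Urod, Fech and Hmox1), which lifted the median of all genes to 0.80. The other heme genes, 2 in the main setting, numbered 1 with quantile normalization, with detected-probe scaling and on slide 1 alone, 14 with spike-in scaling, and 2 to 6 with 1 array left out, 6 without the p53f/f HCC of mouse 3715, 4 without that of mouse 3716 and 4 without the p53LKO HCC of mouse 3731. Signs turned only for uncalled values. With spike-in scaling the dimmer Uros probe was 0.37, Cpox 0.71, the dimmer Hmox1 probe 0.42, Blvrb 0.57 and Alas2 0.16. With quantile normalization Alad was -0.04, the dimmer Uros probe 0.22 and Ppox -0.09. With detected-probe scaling Alad was -0.05, its dimmer probe -0.15 and Ppox -0.18. Cpox was 0.07 with normexp, Ppox -0.06 with row as a block and in the upper rows alone, and the dimmer Alad probe -0.09 on slide 1 alone. With 1 array left out Cpox ranged from -0.28 to 0.21, Ppox from -0.03 to 0.23 and Blvrb from -0.37 to 0.05. Apart from the changed scale or samples of each setting, the cause was not tested.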
